A study of Mus musculus with 12 samples.

Results

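The genes Lgr5, Ascl2, Slc12a2 and Rgmb, which are known from intestinal stem cells, were followed through H3K4me3 peak lists of mouse small-intestinal epithelium. H3K4me3, trimethylation of lysine 4 of histone H3, marks promoters of active and poised genes. A member is the set of peaks in 1 mm9 window given for its gene: chromosome 10 from 115015000 to 115030000 for Lgr5, chromosome 7 from 150148000 to 150160000 for Ascl2, chromosome 18 from 58033000 to 58048000 for Slc12a2, and chromosome 17 from 15950000 to 15972000 for Rgmb. The 4 windows held 39 of the 116174 peaks in the 8 lists, and they stand beside 24352 merged regions in all. The windows were taken as given for these genes and could not be checked against an mm9 annotation. The genes were proposed with the lengths of these peaks in view. Their values are therefore a description, with no test, and all measures of the same peaks count as used.

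Chromatin immunoprecipitation and sequencing was done on 2 libraries for each of 4 groups, all from mice of a mixed C57BL/6 CD1 background. The E12.5 and E14.5 groups are EpCAM+ CD31- CD45- epithelium of embryos of that embryonic day, whose genotype at Lgr5 is not given in the labels. The ISC group is Lgr5-EGFP-high stem cells and the enterocyte group is EpCAM+ CD31- CD45- cells, both from Lgr5EGFP-Cre-ERT males at postnatal day 60. The stated enterocyte gate names no enterocyte marker. The reporter allele sits in Lgr5 itself, both adult groups carry it, and ISC were sorted by it, so the Lgr5 window in ISC is no independent observation. Each pair of libraries is described as biological duplicates in the design. How many animals went into a library is not given in the sources used here. In bulk chromatin, fewer marked cells and less of the mark per cell cannot be told apart. Of further markers, only the domain taken as that of the stem-cell gene Olfm4 was placed, and it had a peak in both ISC libraries and in none of the other 6. Its window was fixed from earlier results of these same data, so this pattern is no independent observation either. Markers of enterocytes and of other cell types were not placed, because no mm9 gene annotation was used.

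Wnt signalling maintains the stem cells at the base of the crypt. Lgr5 is a receptor for R-spondins, which strengthen Wnt signalling, and its own gene is a Wnt target. Ascl2 is a basic helix-loop-helix transcription factor that acts with Wnt signalling to keep stem-cell identity. Slc12a2 (NKCC1) is the sodium-potassium-chloride cotransporter that loads crypt cells with chloride for secretion. Rgmb (DRAGON) is a membrane-anchored co-receptor for bone morphogenetic proteins, signals that oppose stemness along the crypt axis. Trimethylation of lysine 4 usually covers a short stretch around an active start site, and at some genes that define a cell type it spreads into a long domain.

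Depth ranged from 12821255 tags in enterocyte replicate 1 to 43259380 in E14.5 replicate 1. Replicate 1 of E12.5 had 15053166 tags and replicate 1 of ISC 13355462, both fewer than any replicate 2 library, which had between 22137910 (enterocytes) and 25547814 (ISC). The 2 libraries of a group were called against the same input, so that stage and input cannot be told apart. A missing peak means only that none was listed at that depth. Below, covered bp is the length under peaks, and scaled bp is that length divided by a factor per library, from 0.72 to 1.28, which equalizes the medians of the 8903 regions called in all 8 lists.

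**Figure D1:**
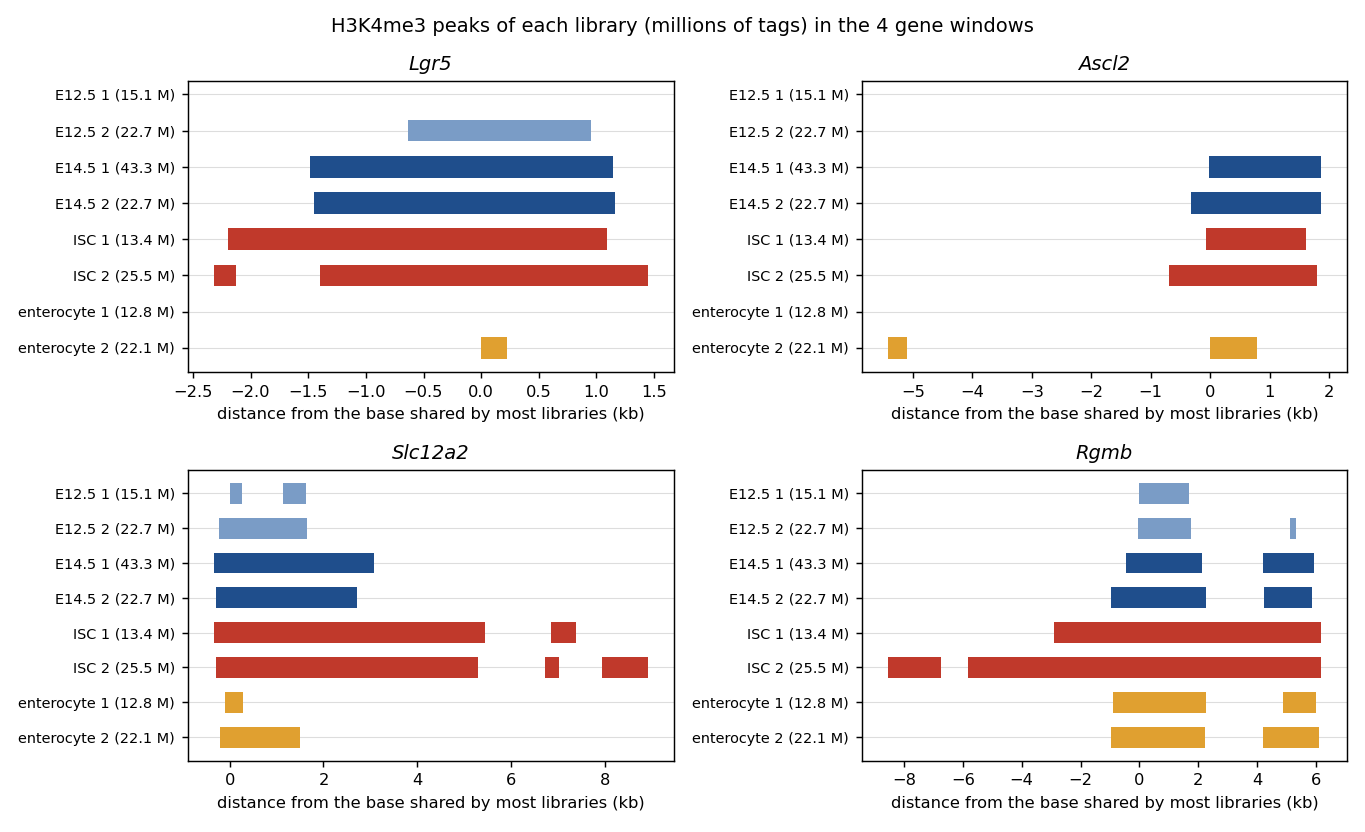
Peaks of each library in the 4 windows, drawn to scale as bars. The horizontal axis is the distance in kb from a base that lies under a peak in most libraries, increasing with the chromosome position, and each row is 1 library with its number of tags. ISC bars reach farthest to the right at Slc12a2 (main peak of 5769 and 5602 bp) and span both Rgmb peaks of the other groups (9077 and 12000 bp). Ascl2 has no bar at E12.5.

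In mean length, covered or scaled, all 4 windows were longest in ISC, and the size of the step from E14.5 differed among them. The windows were chosen from these lengths and the share of all regions longest in ISC was not computed. Being longest in ISC is therefore no result about these genes. For the counts, a window or region was longer in a group when both of its libraries lay above both of the other group and the mean scaled bp were at least 1.5 times apart. From E12.5 to E14.5, 4 of 4 windows were longer, as were 32.2% of the 17679 regions called in at least 2 libraries. From E14.5 to ISC, 3 of 4 were longer (Lgr5, Slc12a2 and Rgmb), as were 5.93% of all regions, and 0 were shorter, against 23.5% of all regions. From E12.5 to E14.5, 0 were shorter, with 1.48% of all regions. From ISC to enterocytes, 4 of 4 were shorter, as were 11.7% of all regions, and 0 were longer, against 9.64%. In ISC against E12.5, 4 of 4 were longer, with 18.1% of all regions, and 0 were shorter, against 6.9%. Since the windows were chosen from these lengths, the shares are given for scale only. The units also differ: a window sums all its peaks, and the 4 windows held 8 merged regions. The regions set beside them, here and for the ratios below, are single merged regions. Without scaling, the median log2 ratio over all regions is 0.76 for E14.5 against E12.5 and -0.33 for ISC against E14.5, beside 0.06 and -0.03 with it. Length is not peak height. For the widest peak of a window, the authors' fold enrichment over input was higher at E14.5 than in ISC at Lgr5, Slc12a2 and Rgmb. At Lgr5 it was 8.27 and 10.79 against 4.43 and 6.1. At Slc12a2 it was 9.03 and 13.95 against 5.98 and 8.57, and at Rgmb 10.23 and 15.03 against 6.46 and 8.12. At Ascl2 the libraries overlapped, and enterocyte replicate 2 had 11.69 at Rgmb. The share over all regions was not computed.

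**Figure D2:**
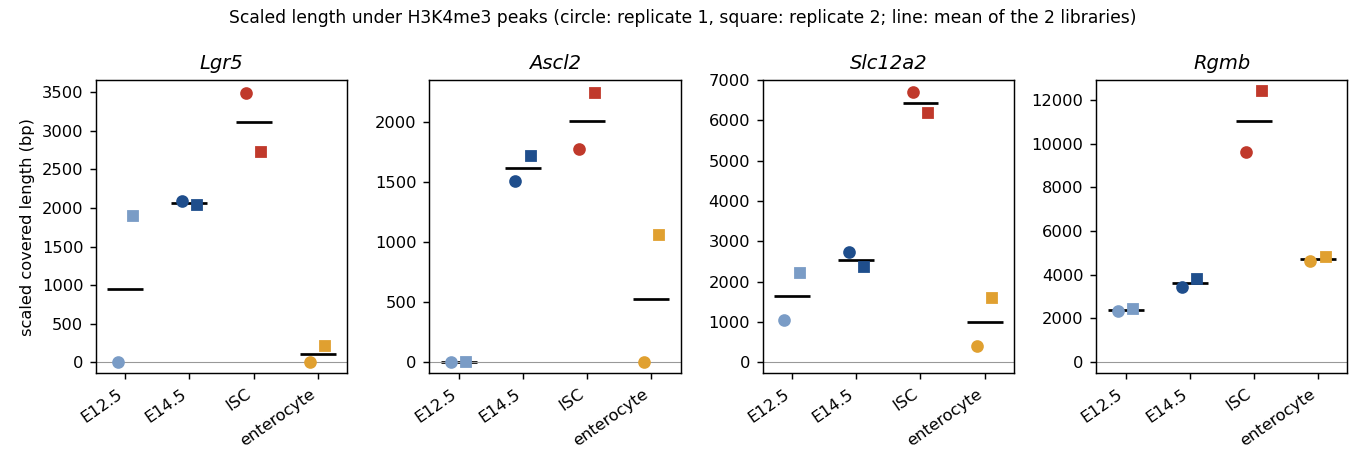
Scaled covered length in bp (vertical axis, from 0) in each group (horizontal axis), 1 panel per gene; circles are replicate 1, squares replicate 2, and the line is the mean of the 2. The ISC points lie above those of every other group in all 4 panels, closely at Ascl2 (1780 against 1720 scaled bp at E14.5) and widely at Rgmb (9636 against 4791 scaled bp in enterocytes).

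Lgr5 had a single peak of 2624 and 2611 bp at E14.5. In ISC the window held 3287 bp in replicate 1, in 1 peak, and 3034 bp in replicate 2, in a main peak of 2844 bp and a small one of 190 bp. At E12.5 no peak was listed in replicate 1 and 1592 bp in replicate 2. In enterocytes no peak was listed in replicate 1 and 222 bp in replicate 2. Thus both E14.5 and both ISC libraries had a domain of similar extent, and the other groups had it in 1 library of 2, at most over part of the length. The mean for E12.5 was 796 bp ± 1130 (SD, n = 2, as for every group), for E14.5 2617.5 bp ± 9.19, for ISC 3160.5 bp ± 179 and for enterocytes 111 bp ± 157. On the scaled length ISC (3109 ± 538) came before E14.5 (2070 ± 36.9), E12.5 (948 ± 1340) and enterocytes (104 ± 147), and the last 2 overlapped.

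The E14.5 and ISC domains of Lgr5 lay on the same bases. Of the 2593 bp called in both E14.5 libraries, 96.2% were called in both ISC libraries, and of the 2558 bp called in both ISC libraries, 97.5% were called in both E14.5 libraries. The excess of ISC over E14.5 in scaled bp was 0.59 on the log2 scale, just at the limit of 1.5 times used for the counts. It was 1.21 times without scaling, 1.32 times without ISC replicate 1 and 1.48 times without E14.5 replicate 2, all under that limit. When weaker peaks, with −log10 q under 10, were removed, it turned to 0.647 times; the Lgr5 peak of ISC replicate 1, at 5.4, is then left out. The embryonic difference turned on E12.5 replicate 1: E14.5 was 2.18 times E12.5 with it and 1.07 times without it. The ratio was 3.29 without scaling, and without E12.5 replicate 2 no peak was left at E12.5. The peak of E12.5 replicate 2 stood low in its own list, where 90.4% of peaks had a higher −log10 q. Between ISC and enterocytes the ratio of mean scaled bp was 29.9, a size that rests on a single peak of 222 bp in enterocyte replicate 2. In the sequence table's assembly, the gene A930009A15Rik lies inside the span of Lgr5, so that a peak in the gene need not belong to Lgr5 alone.

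A further region lay on the low-coordinate side of Lgr5, outside its window, and was singled out after its values were seen. On chromosome 10 from 114940206 to 114943339, peaks were listed in both ISC libraries (2654 and 2182 bp) and in both E14.5 libraries (283 and 1005 bp). No E12.5 or enterocyte library had a peak there. Mean scaled bp in ISC was 4.72 times that at E14.5, 3.04 times without E14.5 replicate 1 and 10.6 times without E14.5 replicate 2. The peaks ended between 79 and 79.7 kb before the Lgr5 peak of their library, and Lgr5, which is transcribed towards lower coordinates, is 137467 bp long in RefSeq (GRCm38). Whether the region lies inside the gene was not checked in mm9. The fold enrichment of its peaks over input, the authors' value for each peak, was 2.63 and 3.3 at E14.5 and 3.48 and 3.42 in ISC. Their −log10 q was low, 1.94 and 2.59 at E14.5 and 2.23 and 3.85 in ISC. None of them is left when peaks of −log10 q under 10 are removed. Within 100 kb of the window there were 2 more peaks, which did not follow this pattern: one of 221 bp in ISC replicate 2, and one of 189 bp in enterocyte replicate 2, from 115013515 to 115013703, with a fold enrichment of 4.99 against 2.95 for the peak inside the window in that library.

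Ascl2 had no peak in either E12.5 library. It had 1 peak of 1893 and 2197 bp at E14.5 and 1 peak of 1677 and 2491 bp in ISC. Enterocyte replicate 1 had none. Enterocyte replicate 2 had a peak of 794 bp on the same bases and a further one of 333 bp, ending at 150148332, that begins at the first base of the window. As covered bp, not scaled, the E14.5 and ISC libraries overlapped. The means were 2045 bp ± 215 at E14.5, 2084 bp ± 576 in ISC and 563.5 bp ± 797 in enterocytes. Ascl2 was the window not counted as longer in ISC than at E14.5: the ratio of scaled bp was 1.24, under the 1.5 of the count, 1.02 without scaling, and 0.726 with peaks of −log10 q under 10 removed, when the peak of ISC replicate 1, at 4.41, is left out. Of the 1893 bp called in both E14.5 libraries, 85.9% were called in both ISC libraries. In lists cut to equal number, 11111 peaks each, by −log10 q, neither E14.5 library kept its Ascl2 peak and both ISC libraries kept theirs, so that Ascl2 counts there as longer in ISC.

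The peaks beside Ascl2 did not share its pattern. Within 100 kb of the window, on the high-coordinate side, a region near 150238193 and another near 150255183 had a peak in every one of the 8 libraries, including both E12.5 libraries (1262 and 1388 bp in the first region). The libraries without a peak at Ascl2 therefore did list peaks in its neighbourhood. In RefSeq the nearest coding genes of Ascl2 are Th and Tspan32.

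The RefSeq promoter table matched 2 of the 4 genes, Ascl2 and Rgmb. It is shown for Ascl2 because this window went from no listed peak to a domain in both libraries between E12.5 and E14.5. The stretch runs from 250 bases before to 50 after the start of the gene, on the minus strand of GRCm38.p6, and capitals mark matches, on either strand, of the motifs searched: the GC box GGGCGG, the TCF/LEF core ATCAAAG bound by the nuclear effectors of Wnt signalling, the TATA box TATAAA, and the E-boxes CAGCTG and CACCTG bound by basic helix-loop-helix and zinc-finger factors.
Ascl2: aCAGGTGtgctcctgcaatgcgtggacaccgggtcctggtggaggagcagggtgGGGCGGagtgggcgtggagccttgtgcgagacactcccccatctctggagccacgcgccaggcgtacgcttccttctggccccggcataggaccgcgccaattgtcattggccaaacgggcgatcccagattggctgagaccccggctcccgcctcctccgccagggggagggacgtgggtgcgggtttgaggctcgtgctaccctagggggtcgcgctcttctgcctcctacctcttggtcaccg
The sequence held 1 GC box at base -196 and 1 CACCTG E-box, as its reverse complement CAGGTG, at base -249, counted from the start. Its 23 CpG dinucleotides were more than in 78.5% of the 32851 promoters of this length, whose median was 7, and 67% of its bases were G or C. The letters ATCAAAG were not in this window, and 3.73% of all promoters held them. The shares of all promoters with the other motifs were 35.7% for GGGCGG, 13.6% for TATAAA, 16.3% for CAGCTG and 20.2% for CACCTG. A match is a description of letters and not a bound site.

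Slc12a2 was marked in all 8 libraries, and its length set ISC apart. In E12.5 the window held 752 and 1864 bp, in E14.5 3411 and 3013 bp, in ISC 6307 and 6871 bp, and in enterocytes 379 and 1710 bp. In length both ISC libraries were well above all others, while E12.5 and enterocytes overlapped. Means were 1308 bp ± 786, 3212 bp ± 281, 6589 bp ± 399 and 1044.5 bp ± 941 in that order. In scaled bp ISC was 2.53 times E14.5 and 6.4 times enterocytes. Of 13863 regions called in both groups, 2.08% had a higher ratio of ISC to E14.5. Without enterocyte replicate 2 the ISC value was 15.7 times that of enterocytes, without replicate 1 it was 3.95 times, and with peaks of −log10 q under 10 removed it was 3.18 times. At E14.5 the window was 1.56 times as long as at E12.5. The ratio was 1.12 without E12.5 replicate 1, which had the fewer tags of the pair, 2.42 without E12.5 replicate 2, 2.46 without scaling and 2.36 with peaks of −log10 q under 10 removed. Both peaks of E12.5 replicate 1, at 6.12 and 3.76, are left out in the last setting.

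The added length of Slc12a2 in ISC lay on 1 side. The low edge of the main peak was between 58037395 and 58037731 in all 8 libraries, a range of 336 bp, and within 47 bp among the E14.5 and ISC libraries. The high edge ranged over 5187 bp: it stood at 58038008 and 58039231 in enterocytes, at 58040805 and 58040454 at E14.5, and at 58043175 and 58043034 in ISC. Slc12a2 is transcribed towards higher coordinates, so that the extension points into the gene. Beyond this edge both ISC libraries had a further small peak, of 538 and 284 bp, and ISC replicate 2 another of 985 bp. Of the 5763 bp called in both ISC libraries, 41.5% (2390 bp) were called in no library of another group, and all 3013 bp called in both E14.5 libraries were among the ISC bases. A pair of small peaks per group, of 585 and 333 bp at E14.5 and 430 and 601 bp in ISC, lay 86647 to 87014 bp from the window on the low side, and none was listed there at E12.5 or in enterocytes. This site was not chosen in advance. The −log10 q of these peaks was low, 2.84 and 1.98 at E14.5 and 1.12 and 8.93 in ISC. None of them is left when peaks of −log10 q under 10 are removed. With peaks of −log10 q under 10 removed, ISC was 1.04 times E14.5, and the main Slc12a2 peak of ISC replicate 1, at 9.2, is then left out.

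Rgmb had one of the widest H3K4me3 domains of the stem cells. In ISC replicate 2 its main peak of 12000 bp ranked 1 by width among 15617 peaks, and in ISC replicate 1 its peak of 9077 bp ranked 2 among 13213. The widest Rgmb peak of the other lists was 1669 and 1810 bp in E12.5, 2576 and 3206 bp in E14.5, and 3150 and 3205 bp in enterocytes. Lists differ in length, so these ranks place a peak in its own list only. In total E12.5 had 1669 and 2023 bp covered, E14.5 had 4326 and 4845 bp, ISC had 9077 and 13808 bp, and enterocytes had 4285 and 5109 bp. The 4 groups did not overlap in scaled bp, and their order was ISC (11029 ± 1970), enterocytes (4708 ± 118), E14.5 (3624 ± 238) and E12.5 (2364 ± 63.9). ISC was 3.04 times E14.5, 4.66 times E12.5 and 2.34 times enterocytes, and 1.41% of the 13863 regions had a higher ratio of ISC to E14.5. Unlike Lgr5 and Ascl2, Rgmb kept 2 peaks in both enterocyte libraries. The E14.5 to E12.5 ratio of 1.53 was near the limit of the count. It was 1.48 without E12.5 replicate 1, 1.46 without E14.5 replicate 2 and 1.03 in lists of equal number, but 2.48 without scaling and 2.85 with peaks of −log10 q under 10 removed. With those peaks removed, the log2 ratio of ISC to E12.5 was 3.35, beside 2.22 with all peaks. The Rgmb peak of E12.5 replicate 1, at 3.78, is then left out, so that this library has none.

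The domain in ISC joined 2 peaks that the other groups showed apart. In E14.5 and enterocytes an inner peak and an outer peak, on the high-coordinate side, were parted by 2063 and 1985 bp at E14.5 and by 2617 and 1993 bp in enterocytes. E12.5 replicate 2 had the outer peak over 213 bp, after a gap of 3368 bp, and E12.5 replicate 1 lacked it. Both ISC libraries covered the gap without a break. They ended at 15968571 and 15968581, close to the outer end of 15968512 in enterocyte replicate 2 and 15968337 in E14.5 replicate 1. On the other side, into the gene, which is on the minus strand, ISC reached 15959495 and 15956582, whereas E14.5 and enterocyte libraries began between 15961411 and 15961949. ISC replicate 2 also had a separate peak of 1808 bp from 15953832 to 15955639. Of the 9077 bp called in both ISC libraries, 43.1% (3915 bp) were called in no other library, and 1669 bp were called in all 8.

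RefSeq lists 3 starts for Rgmb in GRCm38.p6, start 2 lying 181 bp and start 3 4680 bp downstream of start 1. The centres of the inner and outer peaks were 4226 and 4407.5 bp apart at E14.5, 4759.5 and 4547.5 bp apart in enterocytes, and 4379.5 bp apart in E12.5 replicate 2. Only these spacings are set side by side, since the positions are in different builds. The promoters of starts 1 and 3 are printed because the window has 2 peaks. Capitals mark the same motifs as above.
Rgmb start 1: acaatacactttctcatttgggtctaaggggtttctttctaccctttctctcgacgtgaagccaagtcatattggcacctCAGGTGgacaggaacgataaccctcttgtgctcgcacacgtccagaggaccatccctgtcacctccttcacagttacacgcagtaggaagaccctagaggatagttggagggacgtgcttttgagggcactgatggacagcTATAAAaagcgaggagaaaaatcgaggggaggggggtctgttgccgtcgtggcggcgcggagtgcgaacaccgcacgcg
Rgmb start 3: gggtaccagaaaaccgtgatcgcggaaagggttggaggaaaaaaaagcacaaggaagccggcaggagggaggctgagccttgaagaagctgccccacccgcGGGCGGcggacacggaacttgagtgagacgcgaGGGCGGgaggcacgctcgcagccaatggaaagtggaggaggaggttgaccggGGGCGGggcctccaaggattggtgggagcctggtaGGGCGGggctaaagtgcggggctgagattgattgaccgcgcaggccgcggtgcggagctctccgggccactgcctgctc
Start 1 had TATAAA at base -29 and the CACCTG E-box at base -170, with 18 CpG dinucleotides and 54% of G or C. Start 3 had no TATAAA and 4 GC boxes, the nearest at base -29, with 24 CpG dinucleotides and 65.3% of G or C. Start 2, whose stretch shares bases with that of start 1 and so holds the same TATAAA, at base -210, had 30 CpG dinucleotides and 2 GC boxes. No match overlapped another, and ATCAAAG was in none of the 3 sequences. All 4 promoter sequences of Ascl2 and Rgmb were above the median of 7 CpG dinucleotides.

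**Figure D3:**
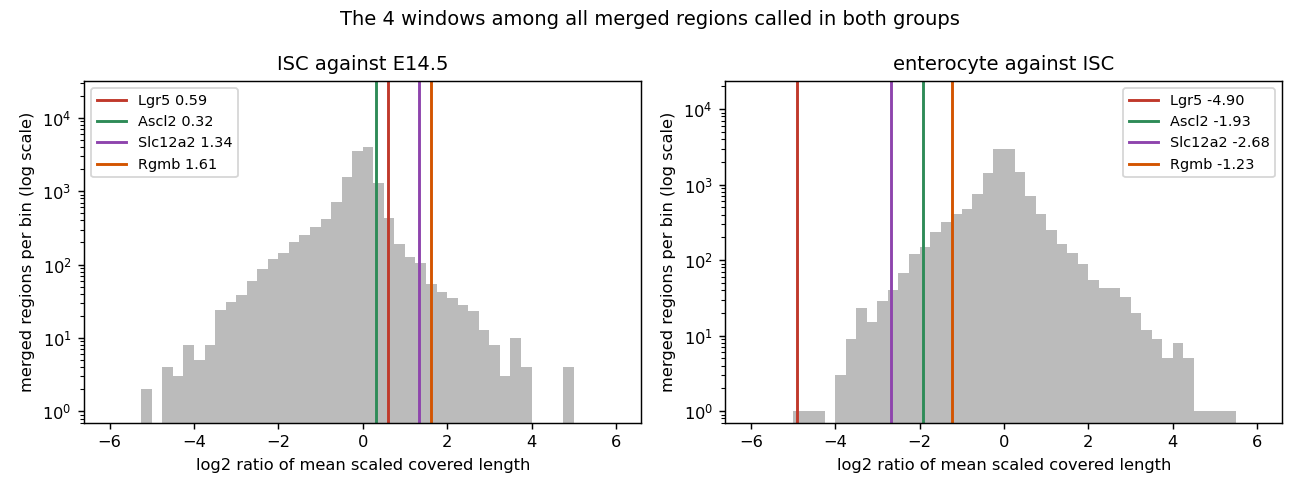
Log2 ratio of mean scaled covered length (horizontal axis) for all merged regions called in both groups, as counts per bin of 0.25 on a log axis (grey bars), with the 4 windows as lines. Against E14.5 (left) the ISC ratios run from 0.32 at Ascl2 to 1.61 at Rgmb, beside a median of -0.03 over 13863 regions. In enterocytes against ISC (right) they run from -4.90 at Lgr5 to -1.23 at Rgmb, beside a median of -0.02 over 13405 regions.

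The windows fell at different places in the comparison of ISC with E14.5 and in that of enterocytes with ISC. Rgmb and Slc12a2 had the larger ratios of ISC to E14.5 and Lgr5 and Slc12a2 the lower ratios of enterocytes to ISC. The log2 ratio of enterocytes to ISC was -4.90 for Lgr5, -2.68 for Slc12a2, -1.93 for Ascl2 and -1.23 for Rgmb. For Lgr5 and Ascl2, 1 enterocyte library was at 0 bp, and the ratio became -3.88 and -0.90 without it. Of the 13405 regions called in both groups, 0.686% had a lower ratio than Slc12a2, 2.54% than Ascl2 and 7.85% than Rgmb.

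In 24 of the 27 library and window pairs with a peak, the widest peak stood higher in its list by width than by −log10 q. The windows were chosen by length and the widest peak of each was taken, which favours a high standing by width. The same share over all peaks was not computed, so the count is no result about these genes. In ISC replicate 1 the Lgr5 peak was narrower than 2.06% of its list, while 71.7% of the list had a higher −log10 q. For Ascl2 the shares were 20.7% and 76.3%, for Slc12a2 0.144% and 51.5%, and for Rgmb 0.00757% and 38.9%. Rgmb resembled other wide domains in this: for the 100 widest peaks of the same list the median share of peaks with a higher −log10 q was 39.3%. The 10th and 90th percentiles of that share were 18.9% and 65.5%, so Slc12a2 lay among them too. In ISC replicate 2 the shares with a higher −log10 q were 55.4% for Lgr5, 61.7% for Ascl2, 39.5% for Slc12a2 and 39.3% for Rgmb. The median for the 100 widest peaks of that list was 37.3%.

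**Figure D4:**
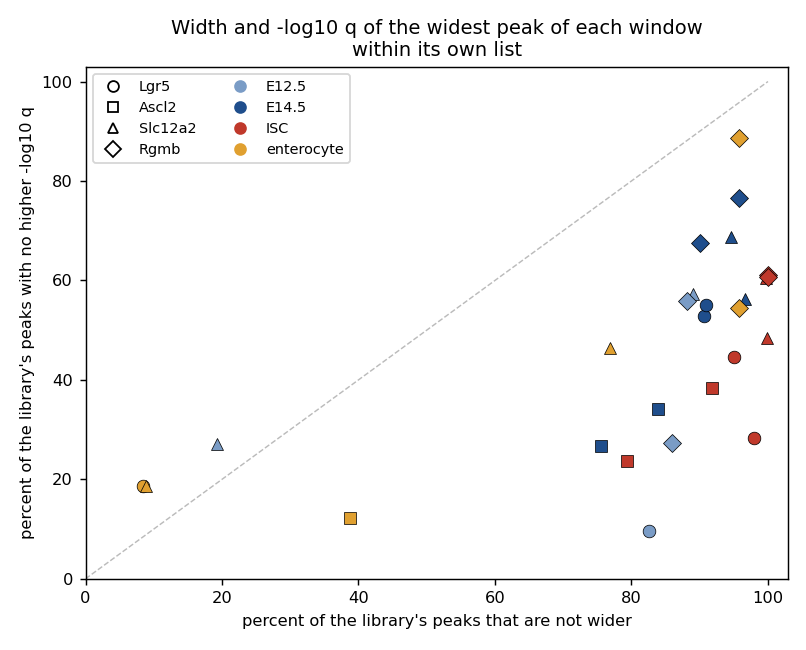
Widest peak of each window in each library, by the percent of its list's peaks that are not wider (horizontal axis) and the percent with no higher −log10 q (vertical axis); shapes are genes, colours are groups, and the dashed line marks equal standing. ISC points of Slc12a2 and Rgmb sit at the right edge at a middling height, with 38.9% to 51.5% of their lists having a higher −log10 q.

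The domain taken as that of Olfm4, a secreted glycoprotein known as a marker of the same cells, served for comparison. Its window was fixed from earlier results of these data, so its values are a description too. On chromosome 14, from 80399972 to 80406046 in ISC replicate 1, it was covered over 6075 and 7807 bp in the ISC libraries and had no peak in any of the other 6. The members differ from it in that all 4 had peaks in both E14.5 libraries. The share of all regions with this trait was not computed. Of the 17679 regions called in at least 2 libraries, 13863 were called in at least 1 library of ISC and 1 of E14.5. The difference from Olfm4 is therefore no result about the members. By scaled length the Olfm4 domain (6736 ± 406) was close to Slc12a2 (6438 ± 364) and shorter than Rgmb in ISC.

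Regions with the most similar profile over the 8 libraries were found by the Euclidean distance between centred log2(scaled bp + 200) values among 17674 other regions, as a description of points that share libraries and depth. The nearest to Rgmb was on chromosome 6 from 94644707 to 94651780, at a distance of 0.75, with means of 1096, 3490.5, 6546.5 and 3032 bp in E12.5, E14.5, ISC and enterocytes, in that order. The next was on chromosome 4 from 95633506 to 95636864 (0.83). The nearest to Slc12a2 was on chromosome 17 from 35134856 to 35140298 (1.00), with means of 1627, 3455, 4690 and 1277.5 bp in the same order, and the next on chromosome 18 from 46886327 to 46888691 (1.17). The nearest to Ascl2 was on chromosome 5 from 141083165 to 141085876 (0.67), with no peak at E12.5 and means of 1988, 2146.5 and 305 bp in the other groups, and the next on chromosome 9 from 56353908 to 56355660 (0.73). Lgr5 had less close neighbours, on chromosome 2 from 4321676 to 4323029 (1.59) and chromosome 17 from 51971017 to 51972803 (1.78). The median distance over all regions was 4.69 for Lgr5, 4.36 for Ascl2, 3.21 for Slc12a2 and 2.49 for Rgmb. Among the members, the closest pairs were Slc12a2 with Rgmb (2.40) and Lgr5 with Slc12a2 (2.43), and the farthest was Lgr5 with Rgmb (4.27).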

How the data were processed

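H3K4me3 was measured in 8 libraries, 2 per group; groups and replicate numbers come from the sample titles. A further 4 samples are inputs, used only through the authors' peak calls. Per the labels' protocols, chromatin was sheared to 350 to 700 bp. Per the file headers, the authors called peaks for each library with MACS 2.0.10.20130712 in broad mode at a q-value cutoff of 0.01. The lowest listed −log10 q was between 1.01 and 1.09, so the lists also hold peaks whose listed q is weaker than that cutoff. mm9, bcl2fastq 1.8.4, Bowtie 1.1.2 and SAMtools 1.2 are listed in the submitters' processing notes. The columns, per the file headers, are start, end and length, pileup (a signal), −log10 of p and of q, and the fold enrichment ratio against input. The deposited lists hold no counts per region.

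Peaks overlapping a window were taken whole. No peak crossed a window edge. Peaks of all lists that overlapped or touched were merged with Python 3.11.15 and pandas 2.3.3, and covered bp per library was scaled as described. The merging, scaling and count rule were checked on simulated lengths. Members, lists and call rule were chosen with earlier results of these data known, and no test was made. The named regions are the members, the 2 most alike regions of each, and the Olfm4 domain. RefSeq tables of GRCm38.p6 gave names, neighbours and promoter sequences, without coordinates, and none was printed for Slc12a2. A list of further stem-cell and Wnt genes was not placed, because it needs an mm9 annotation. Alternatives were no scaling, lists of equal number, a −log10 q of at least 10, clipping to the window, means 2 times apart, other pseudocounts, each library left out, and, chosen after seeing the data, replicate 2 libraries only.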

Additional observations from a re-analysis of the deposited data

How the results depend on the processing

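The 4 windows were shorter in enterocytes than in ISC, and longer in ISC than at E12.5, without scaling, in lists of equal number, with means 2 times apart and with each library left out. The shares of all regions over these settings were 8.97% to 21.7% for the first comparison and 14.6% to 29.3% for the second. With the replicate 2 libraries only, ISC against E12.5 kept 3, without Lgr5, beside 30.1% of all regions. Removing peaks of −log10 q under 10 left 1 window, Rgmb, in each of these comparisons and 1 in ISC against E14.5, where Lgr5 reversed to a log2 ratio of -0.63. The shares of all regions were then 9.77% shorter in enterocytes, 22.4% longer in ISC than at E12.5 and 1.7% longer in ISC than at E14.5. From E12.5 to E14.5 the count of longer windows was 2 in lists of equal number (Lgr5 and Slc12a2), 2 with means 2 times apart (Lgr5 and Ascl2), 2 with the replicate 2 libraries only (Ascl2 and Rgmb) and 1 to 4 with each library left out. The shares of all regions were 13.3%, 28.1%, 28.2% and 28.1% to 39.5%, in that order. The count was 4 without scaling, beside 64.4% of all regions, and 4 with peaks of −log10 q under 10 removed, beside 59.5%. Only Ascl2 was left without E12.5 replicate 1. From E14.5 to ISC the count was 2 to 3 with each library left out, Slc12a2 and Rgmb in every case, beside 6.28% to 11.6% of all regions. It was 2 without scaling, beside 4.16%. In lists of equal number Ascl2 counted there in place of Lgr5, beside 6.99% of all regions. Of the 8 regions named as most alike, 6 stayed when the pseudocount was 50 bp and 2 when it was 1000 bp. Of 113 log2 ratios under an alternative, 24 moved by over 1.5 times and 2 changed sign, Lgr5 and Ascl2 (to -0.46), both in ISC against E14.5 with those peaks removed. A further 13 ratios were lost because a group went to 0 bp, and Ascl2 against E12.5 had none to begin with. The causes were not tested. In the libraries of 12821255 to 15053166 tags, a missing peak may reflect depth, which was not tested. No paired analysis was possible because no result comes from a test.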
